A study of Homo sapiens with 8 samples.

Results

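Plasminogen activators and serpins form a protease system and its brakes. Urokinase (PLAU) and tissue-type plasminogen activator (PLAT) are serine proteases that cut plasminogen to plasmin, which digests fibrin and pericellular matrix, and the urokinase receptor (PLAUR) holds urokinase on the cell surface. Serpins trap a target protease in a covalent complex: protease nexin-1 (SERPINE2) inhibits thrombin and both activators, protein C inhibitor (SERPINA5) inhibits activated protein C and urokinase, antitrypsin (SERPINA1) inhibits neutrophil elastase, and antichymotrypsin (SERPINA3) inhibits cathepsin G. Maspin (SERPINB5) is an epithelial serpin that does not inhibit proteases in the usual way, and SERPINB2 is a further urokinase inhibitor. In colorectal and pancreatic carcinoma, urokinase and its receptor are known for their link to invasion.

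The 9 listed genes were PLAU, PLAUR, PLAT, SERPINE2, SERPINB2, SERPINB5, SERPINA1, SERPINA3 and SERPINA5, and every probe set whose only annotated symbol was one of them was read. Probe sets were found for 8 of the 9 genes, 13 probe sets of 22215 and 8 genes of 11963 in all. SERPINB2 had no probe set with a single annotated symbol and was not analysed here. The genes had been selected with their differences on these same arrays in view, among them SERPINE2 after antibody in HT29, PLAU after antibody in Colo357 and SERPINA5 between clones with 2 vectors and 1. Their values are therefore a description with no test, and tests were run on related genes alone. The related lists were also drawn up with earlier results of these data known, which their p-values do not account for.

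Expression had been measured on 8 Affymetrix HG-U133A GeneChips, 1 hybridisation each, in 7 groups. Colo357, an established pancreatic cancer line, was profiled after 72 h with the CD24 monoclonal antibody SWA11 at a dilution of 1:40 and untreated. HT29, an established colorectal cancer line, was profiled as 2 clones (G and E) carrying 2 shRNA vectors against CD24, 1 clone (833) carrying 1 such vector, 1 clone carrying a GFP shRNA vector, parental cells after the same antibody for 72 h, and untreated parental cells. All clones derive from HT29, each is a single clone, and no array of an unrelated antibody was used, so the effect of a clone and of its vector, or of SWA11 and of antibody exposure, cannot be told apart. The labels do not say whether the samples came from separate cultures, so spreads and p-values cover only these samples. CD24, the targeted gene, was at 171.7 in clone G, 595.5 in clone E and 558.0 in the 1-vector clone, against 7362.5 in the GFP clone and 6425.1 in untreated HT29. It was at 1848.9 in antibody-treated and 2038.7 in untreated Colo357, and at 4089.7 in antibody-treated HT29.

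Values are MAS5 intensities, and every array had the same trimmed mean of 250.1. Array medians ran between 32.4 and 63.1. Clone G stood apart in its control probes: its 18S 3′ signal was 434.8 against 14.7 to 48.0 on the other arrays, and its ACTB 3′ to 5′ ratio was 1.775 against 1.058 to 1.171. Of the line markers, KRT7 was at 7502.6 and 5468.1 in antibody-treated and untreated Colo357 and at most 193.3 in HT29 cells, while KRT20 was at most 13.7 in Colo357 and at least 1117.1 in HT29 cells. The intestinal markers CDX1, CDX2, CDH17 and GPA33 did not exceed 68.8 on any array, HT29 included. Other markers went against the labelled tissue: VIL1, of the colon list, was at 1123.5 in untreated Colo357 and 439.3 in untreated HT29, and SOX9 and TM4SF1, of the pancreatic list, were at 394.4 and 566.0 in untreated Colo357 and at 1362.4 and 3246.3 in untreated HT29. LGALS4, of the colon list, was at 53.6 and 32.5 in clones G and E, 682.2 in the 1-vector clone and 584.5 in the GFP clone, against 4581.5 in untreated HT29. A log2 difference below is taken on log2(intensity + 10), which understates the change of dim genes. With 1 array in 6 of the 7 groups, clones G and E are the only pair that shows a spread between samples of 1 group. Their distance on the log2 scale was smallest for SERPINE2 (0.04) and largest for PLAU (2.26), and a gap of that size or less between single arrays of the same gene is within the spread between 2 clones of 1 group.

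**Figure D1:**
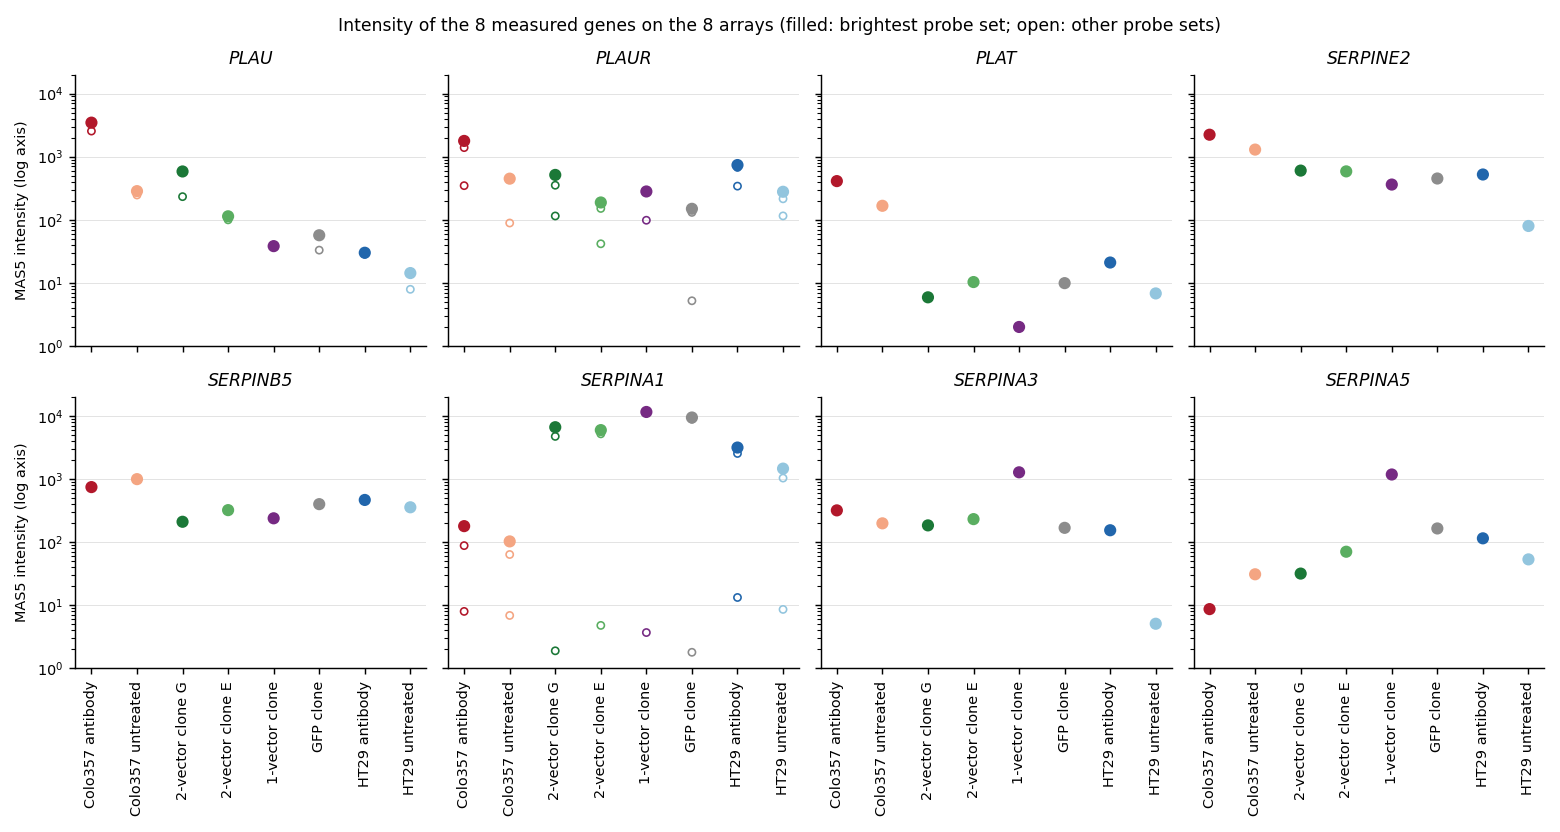
Each panel plots the MAS5 intensity (log axis) of 1 gene on the 8 arrays. Filled points are the brightest probe set and open points are the gene's other probe sets. PLAU is highest in antibody-treated Colo357, and SERPINA3 and SERPINA5 are highest in the 1-vector clone, while SERPINA3 has its lowest point, 5.1, in untreated HT29.

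PLAU, the urokinase gene, had the widest range of the 8 genes, 7.16 log2 units over the 8 arrays. Its brighter probe set (205479_s_at) was at 3456.6 in antibody-treated and 284.1 in untreated Colo357. It was at 582.4 in clone G, 113.4 in clone E, 38.2 in the 1-vector clone, 56.8 in the GFP clone, 30.0 in antibody-treated HT29 and 14.3 in untreated HT29. Antibody-treated Colo357 was thus above every other array, untreated Colo357 was above every HT29 array but clone G, and untreated HT29 was the lowest. The second probe set (211668_s_at) gave 2541.1 and 246.6 in antibody-treated and untreated Colo357 and 232.3, 99.6, 36.6, 33.0, 28.4 and 7.9 on the HT29 arrays in the same order. The probe sets followed each other over the 8 arrays (Pearson r = 0.986 on the log2 scale).

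The antibody difference of PLAU in Colo357 was 3.56 on the log2 scale, or 11.8-fold by the brighter probe set, and 3.31 by the other. In HT29 the difference was 0.72, and 1.10 by the other probe set, at intensities below the signal filter, which is the median of all probe sets on the arrays compared. Between clones with 2 vectors and the clone with 1, PLAU differed by 2.49, with a log2 level of 8.08 ± 1.60 (SD, n = 2) in the 2-vector clones against 5.59 in the 1-vector clone. The 2 clones themselves were 2.26 apart, G above E, and clone G is the array with the deviating control probes. The part of that deviation in its PLAU level was not tested. Without clone G the difference from the 1-vector clone was 1.36, and without clone E it was 3.62. Against the GFP clone, PLAU differed by 3.15 in clone G, 0.89 in clone E and -0.47 in the 1-vector clone, the last 2 within the distance of clones G and E, and the CD24 shRNA clones and their controls overlapped. By the second probe set they did not overlap, because its 1-vector value lay just above that of the GFP clone (36.6 against 33.0), and each of the 4 clones was then at least 2-fold above parental HT29.

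PLAUR, the urokinase receptor, had its highest value of each line in antibody-treated cells. Its brightest probe set (210845_s_at) was at 1774.3 in antibody-treated and 447.8 in untreated Colo357, and at 735.8 in antibody-treated and 277.6 in untreated HT29. The clones were at 513.3 in G, 187.8 in E, 280.6 in the 1-vector clone and 149.1 in the GFP clone. The clones lay on both sides of untreated HT29. The antibody difference was 1.96 in Colo357 and 1.37 in HT29, and clones G and E were 1.40 apart, so the HT29 difference by this probe set is within that spread. The other 2 probe sets gave 1.59 and 1.85 in Colo357 and 1.61 and 1.49 in HT29, against 1.17 and 1.27 between clones G and E. The CD24 shRNA clones were at a log2 level of 8.28 ± 0.71 (SD, n = 3) against 7.74 ± 0.60 (SD, n = 2) in the controls, with overlapping values. The remaining probe set (214866_at) was dimmer, between 5.2 and 346.9, and had its lowest value in the GFP clone.

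PLAT, the gene of tissue-type plasminogen activator, was above the signal filter in Colo357 alone. It was at 409.6 in antibody-treated and 166.4 in untreated Colo357, and between 2.0 and 21.0 on the 6 HT29 arrays. The antibody difference in Colo357 was 1.25 on the log2 scale. In HT29 cells PLAT lay below the signal filter in every comparison, and no direction is read from its differences there.

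The promoters of PLAUR, PLAU and SERPINE2 are shown because these genes had the largest antibody differences above the signal filter, PLAU and PLAUR in Colo357 and SERPINE2 and PLAUR in HT29. They are from RefSeq on GRCh38.p14 and hold the 250 bases before the transcription start, 5′ to 3′ on the gene's strand. For PLAU and SERPINE2, which have 2 listed starts, the second is printed. Capitals mark letters matched on either strand by 1 of 5 motifs: AP-1 (TGANTCA), the cAMP response element (TGACGTCA), an HNF1 half-site (GTTAAT), the GC box (GGGCGG) and the TATA box (TATAAA). Where matches touch or overlap, their capitals run together.

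PLAUR, chr19:43670170-43670419, minus strand: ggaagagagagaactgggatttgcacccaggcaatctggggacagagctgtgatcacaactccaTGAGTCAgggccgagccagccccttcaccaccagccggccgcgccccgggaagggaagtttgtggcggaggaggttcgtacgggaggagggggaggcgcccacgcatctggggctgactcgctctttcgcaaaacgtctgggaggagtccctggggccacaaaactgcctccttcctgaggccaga
PLAU, chr10:73910882-73911131, plus strand: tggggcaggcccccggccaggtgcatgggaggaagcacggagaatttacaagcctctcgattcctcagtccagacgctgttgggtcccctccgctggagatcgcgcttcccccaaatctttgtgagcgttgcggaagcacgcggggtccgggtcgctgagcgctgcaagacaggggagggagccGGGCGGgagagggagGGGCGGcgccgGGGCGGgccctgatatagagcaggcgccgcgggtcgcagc
SERPINE2, chr2:224038641-224038890, minus strand: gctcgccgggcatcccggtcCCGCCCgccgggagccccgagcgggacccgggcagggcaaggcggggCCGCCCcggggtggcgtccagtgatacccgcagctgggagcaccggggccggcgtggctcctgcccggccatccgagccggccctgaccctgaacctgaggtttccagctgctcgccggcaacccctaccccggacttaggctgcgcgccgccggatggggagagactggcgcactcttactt

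The PLAUR window holds 1 AP-1 match, TGAGTCA, 186 bases before the start. An AP-1 match occurs in 6.57% of the 35116 promoters of the same length. The PLAU window holds 3 GC boxes, 66, 51 and 40 bases before the start, and the SERPINE2 window holds 2, at 230 and 183 bases. A GC box occurs in 42.6% of promoters. The cAMP response element (1.65% of promoters) and the TATA box (10.7%) were matched in none of the windows searched for the members. The promoter of PLAT was not among those searched. The first listed start of PLAU held no match and that of SERPINE2 held 1 GC box. These matches describe the letters only.

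SERPINE2, the protease nexin gene, was at 2225.0 in antibody-treated and 1293.5 in untreated Colo357. It was at 600.9 and 584.2 in clones G and E, 361.2 in the 1-vector clone, 450.3 in the GFP clone, 521.2 in antibody-treated HT29 and 79.7 in untreated HT29. The other 5 HT29 arrays lay close together, and untreated HT29 was far below them. The antibody difference was 2.57 in HT29 (5.92-fold) and 0.78 in Colo357. The 4 shRNA clones, the GFP clone included, were each at least 2.05 above parental HT29, with a log2 level of 8.96 ± 0.34 (SD, n = 4) against 6.49. Against the GFP clone, clone G differed by 0.41, clone E by 0.37 and the 1-vector clone by -0.31, all smaller than the distance of the GFP clone from parental HT29 (2.36). The antibody comparison in HT29 and the comparison of clones with parental HT29 share the untreated HT29 array, and both differences rest on it.

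SERPINB5, the maspin gene, had the narrowest range of the members, 2.19 log2 units. It was at 746.2 in antibody-treated and 997.6 in untreated Colo357, and at 466.9 in antibody-treated and 357.2 in untreated HT29. The clones were at 210.6 in G, 322.1 in E, 239.0 in the 1-vector clone and 400.6 in the GFP clone. All 3 CD24 shRNA clones were below both controls, at 8.04 ± 0.30 (SD, n = 3) against 8.60 ± 0.11 (SD, n = 2), a difference of -0.56 that is smaller than 2-fold and close to that of clone G minus clone E (-0.59). With arrays centred on their medians the difference was -0.12. Its antibody differences were -0.41 in Colo357 and 0.38 in HT29.

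SERPINA1, the antitrypsin gene, was the brightest member. Probe set 211429_s_at was at 6635.9 in clone G, 5969.9 in clone E, 11570.5 in the 1-vector clone, 9455.5 in the GFP clone, 3160.2 in antibody-treated HT29 and 1464.8 in untreated HT29. Colo357 was far below, at 179.6 after antibody and 102.9 untreated. Every HT29 array thus exceeded both Colo357 arrays, and all 4 clones exceeded both parental HT29 arrays. The clones averaged 12.99 ± 0.44 (SD, n = 4) on the log2 scale against 10.53 in untreated parental HT29, a difference of 2.46, with the GFP clone at 2.68 and the CD24 shRNA clones between 2.02 and 2.97. The antibody difference was 1.10 in HT29 and 0.75 in Colo357. Probe set 202833_s_at followed the first (r = 0.998), with values of 4744.9, 5204.5, 11615.1 and 8859.7 in clones G, E, 1-vector and GFP. Another probe set (211428_at) stayed between 1.8 and 13.3 on all arrays and did not follow the others (r = -0.505).

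SERPINA3, the antichymotrypsin gene, was at 1280.0 in the 1-vector clone, against 184.6 and 232.0 in clones G and E, 168.8 in the GFP clone, 154.6 in antibody-treated HT29 and 5.1 in untreated HT29. In Colo357 it was at 319.2 after antibody and 198.9 untreated. The 1-vector clone was the highest array and untreated HT29 the lowest, and the other 6 arrays lay within about 1 log2 unit of each other. The 2-vector clones were at 7.76 ± 0.22 (SD, n = 2) against 10.33 in the 1-vector clone, a difference of -2.57. Each clone was at least 3.57 above parental HT29. Over the CD24 shRNA clones and both controls the difference was 2.92, with values apart by a small margin, 184.6 in clone G against 168.8 in the GFP clone. It was 1.14 with the GFP clone as the only control and 4.70 with untreated HT29 as the only control. The antibody difference in HT29, 3.45, lay below the signal filter, and it was 1.89 with 50 in place of 10 added to the intensity and 4.67 with 1 added.

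SERPINA5, the protein C inhibitor gene, was at 1181.8 in the 1-vector clone, against 31.8 and 70.6 in clones G and E, 165.0 in the GFP clone, 115.1 in antibody-treated HT29 and 53.4 in untreated HT29. Both Colo357 arrays were dim, at 8.7 after antibody and 31.0 untreated. A single clone thus carried the high value. The 2-vector clones were at 5.86 ± 0.67 (SD, n = 2) against 10.22, a difference of -4.36 (20.5-fold), and they were also below the GFP clone, with log2 differences of -2.07 in G and -1.12 in E. The 1-vector clone was 2.77 above the GFP clone and 4.23 above parental HT29.

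The promoters of the 3 clade A serpin genes that were highest in the 1-vector clone are printed in the same way, with the second of 2 starts for SERPINA1.

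SERPINA1, chr14:94388603-94388852, minus strand: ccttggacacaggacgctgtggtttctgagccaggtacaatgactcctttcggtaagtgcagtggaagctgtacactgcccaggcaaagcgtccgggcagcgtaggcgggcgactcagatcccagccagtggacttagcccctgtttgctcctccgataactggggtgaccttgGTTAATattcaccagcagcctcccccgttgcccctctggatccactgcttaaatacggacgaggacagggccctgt
SERPINA3, chr14:94612141-94612390, plus strand: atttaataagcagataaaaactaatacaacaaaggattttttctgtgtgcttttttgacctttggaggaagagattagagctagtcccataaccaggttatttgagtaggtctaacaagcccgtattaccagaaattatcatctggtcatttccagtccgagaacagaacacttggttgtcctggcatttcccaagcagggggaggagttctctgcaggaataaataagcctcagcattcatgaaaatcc
SERPINA5, chr14:94581176-94581425, plus strand: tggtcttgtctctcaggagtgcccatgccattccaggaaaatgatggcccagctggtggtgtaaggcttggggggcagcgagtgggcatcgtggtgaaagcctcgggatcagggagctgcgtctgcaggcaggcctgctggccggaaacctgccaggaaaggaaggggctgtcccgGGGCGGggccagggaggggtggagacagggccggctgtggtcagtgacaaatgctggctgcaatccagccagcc

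The SERPINA1 window holds an HNF1 half-site, 76 bases before the start, a match found in 6.23% of promoters. SERPINA5 holds 1 GC box at 74 bases, and SERPINA3 holds none of the 5 motifs. No motif was matched in all 3 windows.

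**Figure D2:**
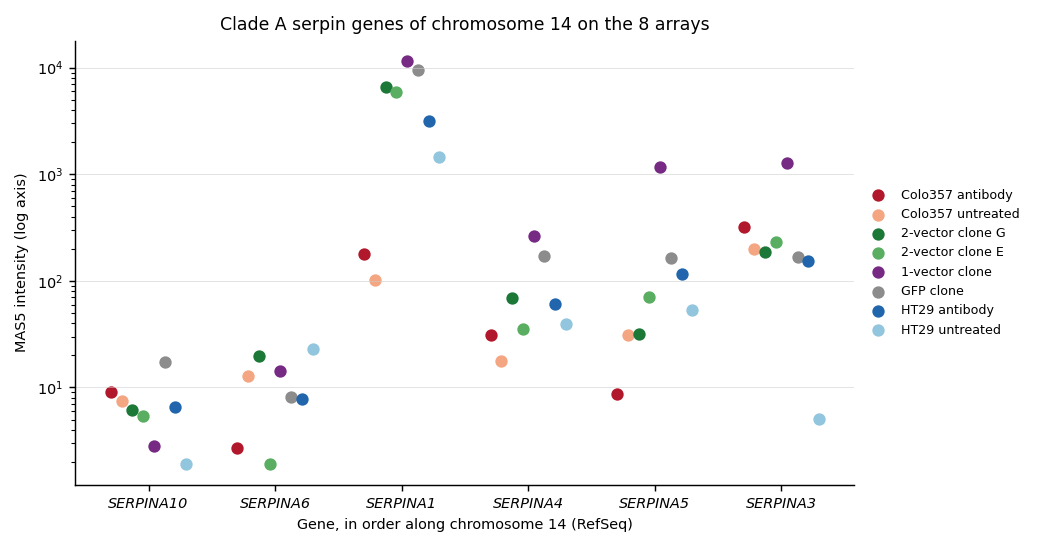
The measured clade A serpin genes of chromosome 14 are shown in their order along the chromosome, with the MAS5 intensity (log axis) of the brightest probe set on each of the 8 arrays. SERPINA1, SERPINA4, SERPINA5 and SERPINA3 each have their highest point in the 1-vector clone, while SERPINA10 and SERPINA6 stay at or below 22.8.

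SERPINA1, SERPINA5 and SERPINA3 lie in 1 run of clade A serpin genes on chromosome 14, with no coding gene of another kind between them in RefSeq. The run was examined after the values of the members had been seen. SERPINA4, the kallistatin gene, which lies between SERPINA1 and SERPINA5, was at 69.5 and 35.5 in clones G and E against 266.0 in the 1-vector clone, and at 169.5 in the GFP clone. SERPINA10 and SERPINA6, at the other end beyond SERPINA1, were dim on all arrays. Several clade A serpins, SERPINA1 and SERPINA3 among them, are liver genes in the body. The 6 hepatocyte markers read beside them summed to 346.6 in the 1-vector clone, with 4 of 6 above the array median. On the other arrays they summed to between 89.3 and 174.3. Of these markers, ALB was at 16.8 and APOB at 3.5 in the 1-vector clone, while TTR was at 153.4 and AMBP at 92.3. TAT (37.9) and CYP3A4 (42.7) were close to the median of that array, 36.9. CYP3A4 was higher in antibody-treated Colo357 (68.1) and antibody-treated HT29 (52.6) than in the 1-vector clone. The part of such genes in the serpin values was not tested.

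Read over the members together, the antibody comparisons placed 3 of the 8 measured genes at 2-fold or more in Colo357 (PLAU, PLAUR and PLAT) and none lower, with 7 above the signal filter. Among all genes above the filter, 10.6% were higher and 12.8% lower by that rule. In HT29, PLAUR, SERPINE2 and SERPINA1 were higher by 2-fold and none was lower, with 5 above the filter and 5.04% of all genes higher and 7.43% lower. PLAUR was the only member in both sets. Its HT29 difference was within the distance of clones G and E by the brightest probe set and larger than that distance by the others. The 3 genes in Colo357 were both activators and the receptor, and the 3 in HT29 were the receptor and 2 serpins, with both activators below the filter. Also below the filter, SERPINA3 (3.45) and the second PLAU probe set (1.1) reached 2-fold in HT29, and SERPINA5 (-1.13) did in Colo357. The genes were selected with antibody differences in view, so nothing is read from the counts or from this division. With 1 array a side, the difference between lines was not tested.

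Between clones with 2 vectors and 1, PLAU was higher and SERPINA3 and SERPINA5 lower by 2-fold without overlap, of 7 members above the filter. SERPINA1 differed by -0.88 by its brightest probe set, short of the rule, and by -1.22 by 202833_s_at, which met it. The same rule held for 5.97% of all genes as higher and 3.41% as lower. For the CD24 shRNA clones against both controls, SERPINA3 alone met the rule, as higher, against 5.44% of all genes higher and 13.2% lower. Without the GFP clone as a control, PLAU, SERPINE2, SERPINA1 and SERPINA3 met it, and without the 1-vector clone PLAU, SERPINE2 and SERPINA3 did. For the 4 shRNA clones, each against parental HT29, SERPINE2, SERPINA1 and SERPINA3 were at least 2-fold higher in all 4, against 6.53% of all genes higher and 1.93% lower. These comparisons share arrays with each other, and the rule that chose the genes used them, so nothing is read from the counts. The balance of all genes moved with the scaling. Of the genes at 2-fold, 29.2% were higher in the CD24 shRNA clones, against 46.5% with quantile normalization and 72.1% with median-centred arrays. The share was 77.2% for the 4 clones against parental HT29 and 61.5% with median-centred arrays, 40.4% for the antibody in HT29 and 53.2% with quantile normalization, and 45.3% for the antibody in Colo357 and 60.0% with median-centred arrays.

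**Figure D3:**
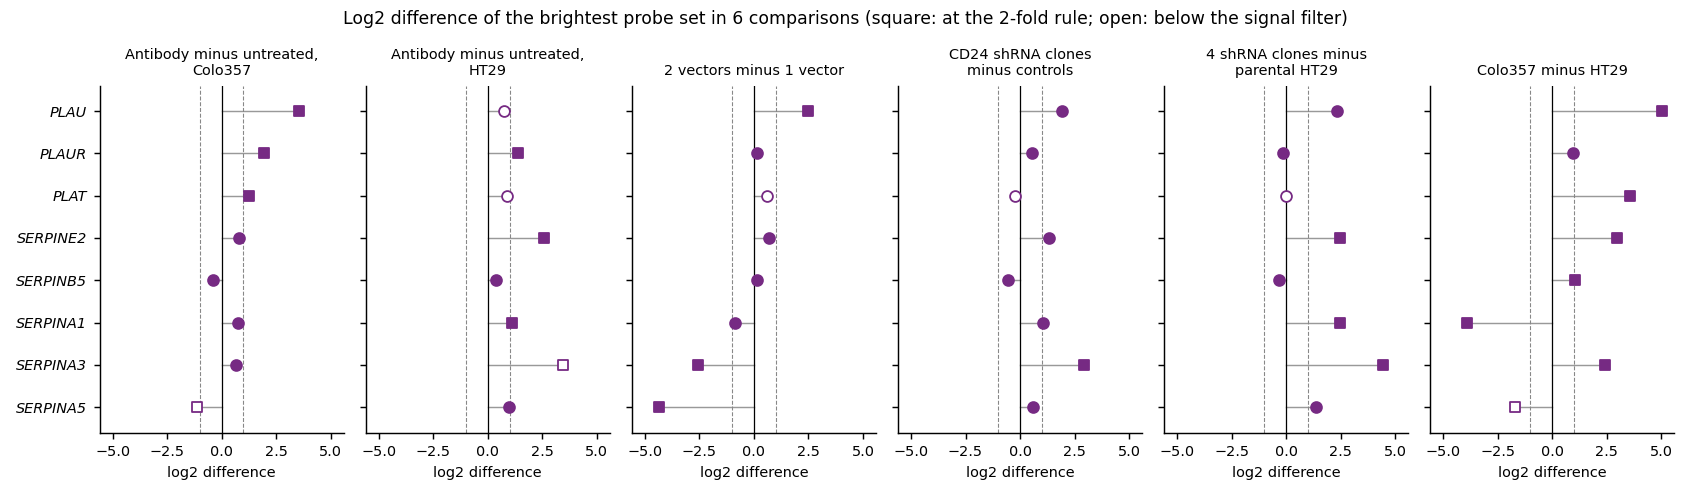
Each panel gives the log2 difference of the 8 measured genes in 1 comparison, by the brightest probe set. Squares meet the 2-fold rule, open symbols lie below the signal filter, and dashed lines mark a log2 difference of 1 in either direction. SERPINE2, SERPINA1 and SERPINA3 are squares against parental HT29, and SERPINA3 and SERPINA5 are the squares below 0 for 2 vectors against 1.

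The untreated HT29 array took part in several of these differences. It was the lowest of the 6 HT29 arrays for 4 of the 8 measured members (PLAU, SERPINE2, SERPINA1 and SERPINA3), as it was for 19.3% of all genes. It was at least 2-fold below each of the other 5 arrays for SERPINE2, SERPINA1 and SERPINA3, and for 1.64% of all genes. Of 38 related genes above the filter, CST6, MMP7, TIMP2 and WFDC2 had the same pattern. The 1-vector clone was the highest of the 6 for SERPINA1, SERPINA3 and SERPINA5, and for 16.6% of all genes, and it was at least 2-fold above each other array for SERPINA3 and SERPINA5, and for 0.385% of all genes. The shares of all genes are of those above the filter, while the 8 members include PLAT, which lay below it. Because the members were selected with differences on these arrays in view, nothing is read from their numbers beside these shares.

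Between the lines, PLAU, PLAT, SERPINE2, SERPINB5 and SERPINA3 were higher in both Colo357 arrays than in both parental HT29 arrays by 2-fold or more in the mean, and SERPINA1 was lower. The rule held for 11.3% of all genes as higher and 9.23% as lower, and the share of higher ones was 55.0%, or 30.9% with median-centred arrays, under which SERPINB5 and SERPINA3 no longer met it. PLAU averaged 9.98 ± 2.52 in Colo357 against 4.96 ± 0.51 in HT29 (SD of log2 levels, n = 2 each), and the wide spread in Colo357 is its antibody difference. PLAT averaged 8.09 ± 0.88 against 4.51 ± 0.62, and SERPINB5 9.77 ± 0.29 against 8.71 ± 0.27. SERPINA1 averaged 7.19 ± 0.53 in Colo357 and 11.08 ± 0.78 in HT29, a difference of -3.89. The SERPINA3 difference was 2.40, and it was 1.00 between antibody-treated and 3.79 between untreated cells. PLAUR overlapped between the lines.

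By Pearson correlation of log2 levels over the 8 arrays, the genes most like each member were named as a description, since the 8 arrays share lines and parental cells. PLAU was most like JAG1, CYTH1 and PXN (r = 0.974, 0.965 and 0.962), and JAG1 had 2664.0 and 833.0 in antibody-treated and untreated Colo357. PLAUR was most like TUBA4A, EIF4EBP1 and DYNLT1 (0.980, 0.970 and 0.962). SERPINE2 was most like KIAA0040, SLC12A4 and ABCC5 (0.969, 0.963 and 0.957), and SERPINB5 most like PTP4A1, BIRC2 and SPTSSA (0.973, 0.970 and 0.961). SERPINA1 was most like CRIP2, APOH and MLPH (0.997, 0.985 and 0.983), and CRIP2 ran between 298.2 and 2497.4 in HT29 cells and at 10.5 and 3.4 in Colo357. SERPINA3 was most like ZNF771, FKBP10 and BCAT2 (0.969, 0.949 and 0.941), and SERPINA5 most like KDELR1, MAST3 and SIRT2 (0.939, 0.915 and 0.908). Among the members, PLAT and SERPINB5 (0.89) followed each other most closely and PLAT and SERPINA1 (-0.91) ran most clearly opposite, and PLAT was below the filter over the 8 arrays.

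Related genes were tested with limma across all genes above the filter. Of 88 related genes with a value, 44 were tested for the antibody over both lines, with the line as a term and 4 arrays, and 4 rose and 1 fell at a Benjamini-Hochberg adjusted p under 0.05. In all, 241 of 6784 genes (3.55%) passed, 77 higher and 164 lower, or 396 higher and 350 lower with median-centred arrays. F3, the tissue factor that starts coagulation, was at 620.0 and 85.7 in antibody-treated Colo357 and HT29, against 173.1 and 11.0 in the untreated cells, and it rose by 1.99 ± 0.33 (SE, limma adjusted p = 0.0239). TFPI, the inhibitor of the tissue factor pathway, was at 12.9 and 89.5 after antibody, against 202.9 and 370.8 untreated, and it fell (-2.58 ± 0.38, limma adjusted p = 0.0165). The tissue inhibitors of metalloproteases TIMP2 (1.85 ± 0.37, adjusted p = 0.0315 by limma) and TIMP4 (1.82 ± 0.32, adjusted p = 0.0267 by limma) rose, as did the elastase inhibitor PI3 (1.38 ± 0.33, adjusted p = 0.0490 by limma). All 5 genes moved the same way in both lines. The test favours such genes, since its only residual is the gap between the antibody differences of the lines. Nothing is read from their agreement. With 1 residual degree of freedom these calls depend on the setting: quantile normalization, testing without the filter, or fitting all 8 arrays together left none of the 5. TFPI by the mean of its probe sets was at -1.31, with a limma adjusted p of 0.0825.

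By list, the limma test of the antibody called 2 of 9 matrix metalloprotease and inhibitor genes, 2 of 5 coagulation genes and 1 of 9 other protease inhibitors. It called 0 of 13 plasminogen system partners, 0 of 5 other serpins and 0 of 3 acute phase genes, beside 3.55% of all genes tested. The lists were chosen with earlier results of these data known, and the calls depend on the setting as said above, so nothing is read from the counts by list. The median log2 difference was 0.71 for the metalloprotease list and 1.06 for the coagulation list, against -0.02 over all genes tested. Counted by the 2-fold rule, 10 of 46 related genes above the filter were higher and 6 lower in Colo357, beside 10.6% and 12.8% of all genes, so the share of lower ones was near that of all genes: MMP9, a gelatinase, was at 566.7 after antibody against 68.8 untreated, and TFPI2, a matrix-bound inhibitor of plasmin, at 748.5 against 115.3. FGB, the fibrinogen beta chain, was at 19.8 against 401.2, and SERPINB3, a cathepsin inhibitor, at 67.5 against 409.9. In HT29, 9 of 35 were higher and 1, TFPI, lower, beside 5.04% and 7.43% of all genes: CST6, a cysteine protease inhibitor, was at 271.8 after antibody against 53.5 untreated, and TIMP2 at 110.4 against 12.8. LRP1, an endocytic receptor, was at 30.6 and 140.8 in antibody-treated and untreated Colo357, and its limma adjusted p over both lines was 0.221.

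For the CD24 shRNA clones against both controls, limma called 0 of 37 related genes and 0 of 6752 genes in all (0.0%), while 9 related genes and 1352 genes had an unadjusted p under 0.05. Without clone E it called 593 genes, 2 of them related, without the GFP clone 88, 4 of them related, and without the 1-vector clone 2. Of the 37, 7 were higher and 1 lower at 2-fold without overlap, beside 5.44% and 13.2% of all genes. F12, the coagulation factor XII gene, was at 1917.2, 1169.7 and 2306.7 in clones G, E and 1-vector, against 727.9 and 453.0 in the GFP clone and untreated HT29 (log2 difference 1.57 ± 0.44, SE, limma adjusted p = 0.208). SERPINF2, the gene of antiplasmin, which inactivates plasmin, was at 180.1, 113.7 and 208.7 against 107.1 and 27.7 (1.38 ± 0.54, limma adjusted p = 0.230). SERPINB1, an inhibitor of neutrophil elastase, was at 452.5, 442.8 and 334.4 against 682.4 and 1729.5 (-1.40 ± 0.47, limma adjusted p = 0.213). For the 4 clones against parental HT29, limma called 0 of 37 related genes (12 with an unadjusted p under 0.05) and 8 of 6752 genes, or 0.118%, with 88 genes and 4 related genes called without the GFP clone and 0 without any 1 of the CD24 shRNA clones. The median log2 difference of the related genes was 0.41 there, against 0.02 over all genes tested. CST6 (3.45), TIMP2 (3.38), WFDC2 (3.31) and MMP7 (3.22) had the largest log2 differences among those at 2-fold in every clone. Between 2 vectors and 1, TIMP2 was higher (1.01), and SERPINA4 (-2.20), SPINK1 (-2.07), LCN2 (-1.64), PROCR (-1.10) and TIMP4 (-1.05) were lower without overlap. PROCR, the endothelial protein C receptor gene, was at 907.2 and 679.1 in clones G and E against 1695.9 in the 1-vector clone.

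The lines differed most among the related genes: 16 of 44 rose and 6 fell in Colo357 against HT29 by limma, beside 1319 of 6784 genes (19.4%) in all. With median-centred arrays 15 rose and 10 fell. The cysteine protease inhibitor CSTA was at 3444.7 and 1924.6 in antibody-treated and untreated Colo357, against 15.0 and 16.9 in HT29 cells (6.64 ± 0.35, SE, limma adjusted p = 9.6e-07). Complement C3 (5.01 ± 0.37), TFPI2 (4.68 ± 0.57), the elastase inhibitors SLPI (4.49 ± 0.38) and PI3 (4.04 ± 0.33), TIMP3 (4.11 ± 0.43), TIMP2 (3.27 ± 0.37) and F3 (2.92 ± 0.33) were the other genes with the smallest adjusted p-values, the largest of them 0.000212 by limma. Of the 9 metalloprotease and inhibitor genes tested, 5 rose and 0 fell. Of the 13 plasminogen system partners, 1 rose and 2 fell. ST14, the matriptase gene, named for its place lowest in the plot of related genes after its values were seen, was at 242.2 and 199.9 in Colo357 against 1424.5 and 1310.6 in HT29 cells (-2.58 ± 0.32, limma adjusted p = 0.000257).

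**Figure D4:**
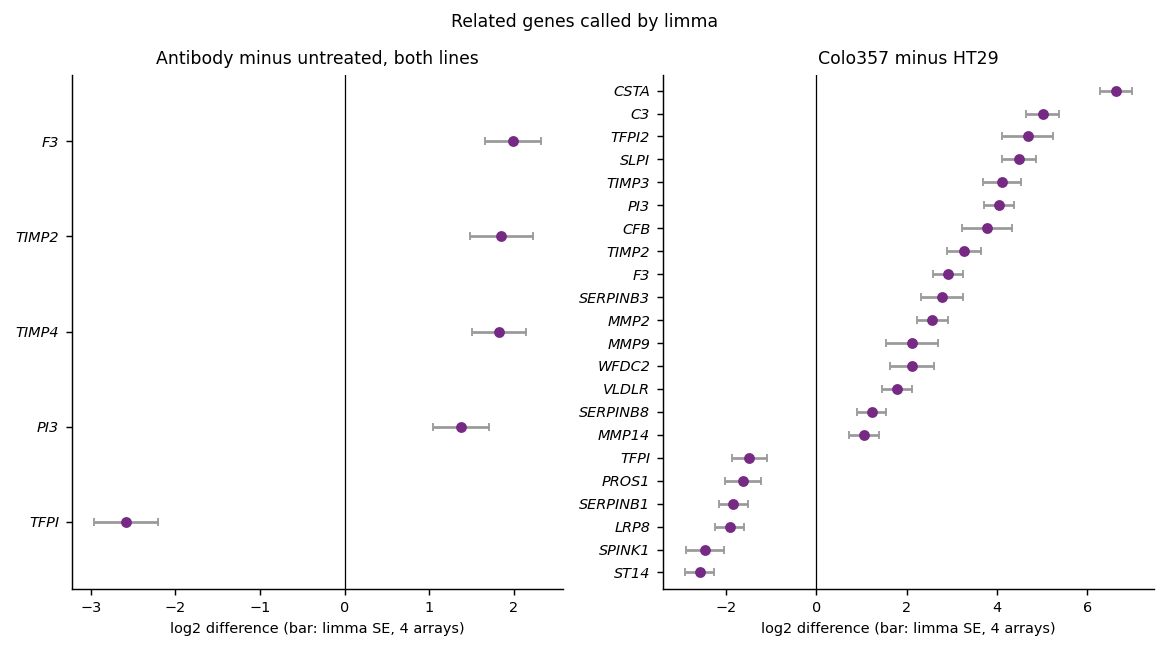
Points are limma log2 differences of the related genes called at an adjusted p under 0.05, and bars are standard errors from 4 arrays. On the left, 4 genes lie above 0 and TFPI below for antibody against untreated cells. On the right, 16 lie above 0 and 6 below for Colo357 against HT29.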

How the data were processed

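RNA of 8 samples had been hybridised to HG-U133A arrays, 1 array a sample. The authors deposited 1 table of MAS5 intensity values, per the submitters' processing notes, which give no version, and the values have 1 common trimmed mean (2% cut at each end) over 22277 probe sets, 62 of them controls. The number of arrays limits the precision, since 6 of 7 groups hold 1 array. In the probe annotation used, 19064 probe sets had 1 symbol, 1043 several and 2108 none. For 19052 of the 19064 the symbol was taken from RefSeq through the Entrez ID, whether or not it changed. A gene was read from its brightest single-symbol probe set.

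From the deposited intensity, log2(intensity + 10) was computed here. The signal filter kept genes whose mean log2 level over the arrays compared exceeded the median probe set. The 2-fold rule asked for a log2 difference of 1 or more in the mean, and for no overlap between groups where a group held over 1 array. For the clones against parental HT29, each clone had to meet it. Related genes were tested with limma 3.58.1 (R 4.3.3, lmFit and eBayes, Benjamini-Hochberg over all genes above the filter), a step that was tested on simulated data. Python 3.11.15, pandas 2.3.3 and numpy 2.4.6 did the rest. Groups followed the labels, and no replicate numbers in the labels pair samples.

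The members and the 6 lists of related genes (95 genes, 88 with a value) were chosen with earlier results of these data known. Named were all members, CD24, up to 8 related genes past limma by smallest adjusted p or otherwise up to 6 per direction at 2-fold by size, and the 3 genes most like each member above the filter. Exceptions are said in the text. Alternatives were added constants of 1 and 50, quantile normalization, median-centred arrays, no filter and a 75th-percentile filter, the mean of probe sets, leaving out _x_at probe sets, a fit of all 8 arrays, other controls, and leaving out single arrays. Promoters were taken from RefSeq (GRCh38.p14). No protein sequences were used here.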

Additional observations from a re-analysis of the deposited data

Results flagged for a closer look

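The 8 measured members and the 44 related genes above the filter were screened for antibody differences of opposite direction in the lines, either way round. A set of 3 genes was lower after antibody in Colo357 and higher after antibody in HT29, by 1.5-fold or more in each line. The share of all genes with such a pattern was not computed, so nothing is read from the count. SERPINA5 differed by -1.13 in Colo357 and 0.98 in HT29 on the log2 scale, a gap of -2.11, at 8.7 after antibody and 31.0 untreated in Colo357, and 115.1 after antibody and 53.4 untreated in HT29. Its Colo357 values lay below the signal filter, and that difference was -1.72 with 1 added to the intensity and -0.46, under 1.5-fold, with 50 added. CFB, the complement factor B gene, differed by -0.70 in Colo357 and 2.21 in HT29, a gap of -2.92, and its HT29 values were dim (47.0 after antibody and 2.3 untreated). MMP7, the matrilysin gene, differed by -0.99 in Colo357 and 1.36 in HT29, a gap of -2.36, at 288.4 after antibody and 584.4 untreated in Colo357, and 599.6 after antibody and 227.0 untreated in HT29. Each value is 1 array against 1 array, so the difference between lines was not tested. No group held the 4 samples that a test for a single deviating array needs.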

How the results depend on the processing

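Of the alternative values of the members' log2 differences, 480 moved by less than the pooled SD within the groups compared and 37 by more. Where each group held 1 array, the limit was 1.5-fold. Except for clones G and E, these groups combine different treatments, clones or controls, so the SD is not a replicate spread. The filter settings and leaving out _x_at probe sets cannot change these differences. The mean of probe sets cannot for a gene with 1 probe set. Such values are among the 480, so the count does not measure stability. In 1 case a called value turned: SERPINA1 in the 4 shRNA clones against parental HT29 was -0.52 by its dim probe set 211428_at, against 2.46. The cause was not tested. No paired analysis by replicate number was possible, since the labels give none that groups share, and the antibody fit pairs the arrays by line.

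Members at 2-fold for the CD24 shRNA clones against controls numbered 2 with quantile normalization, 3 with median-centred arrays (PLAU, SERPINE2 and SERPINA3) and 0 with the 75th-percentile filter, which tests fewer genes, against 1. With that filter they numbered 1 against 3 for 2 vectors against 1 and 3 against 6 for the lines. Leaving out single arrays gave 1 to 4 for the CD24 shRNA clones, the highest without the GFP clone.

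Related genes called for the antibody numbered 0 with quantile normalization, 11 with median-centred arrays, 0 without the filter, 1 with the 75th-percentile filter, 1 with the mean of probe sets and 0 in the fit of all 8 arrays, against 5. All genes called there numbered 147 with 1 added, 0 with quantile normalization, 746 with median-centred arrays, 0 without the filter, 85 with the 75th-percentile filter, 29 with the mean of probe sets, 3 in the fit of all 8 arrays and 157 without _x_at probe sets, against 241. No array could be left out of that fit, which has 1 residual degree of freedom.

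For the CD24 shRNA clones against controls, median-centred arrays gave 8 related genes and 373 genes, against 0 and 0. Leaving out single arrays gave 0 to 4 related genes (4 without the GFP clone) and 0 to 593 genes (593 without clone E). For the 4 clones against parental HT29, related genes numbered 1 with 50 added, 4 with median-centred arrays and 2 with the 75th-percentile filter, against 0, and all genes numbered 27 with 1 added, 16 with quantile normalization, 58 with median-centred arrays, 28 with the 75th-percentile filter, 14 with the mean of probe sets and 14 without _x_at probe sets, against 8. Leaving out single arrays gave 0 to 4 and 0 to 88, both highest without the GFP clone.

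For Colo357 against HT29, related genes numbered 7 with the 75th-percentile filter and 14 in the fit of all 8 arrays, against 22, and all genes 2167 with median-centred arrays, 583 with that filter and 609 in that fit, against 1319. Median-centring put the median log2 difference over all genes at 0.48 for the CD24 shRNA clones against controls, against 0.04, and at -0.35 for the lines, against -0.03.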

Other observations

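SERPINB5 lies in the clade B serpin run on chromosome 18, which was read after its values had been seen. SERPINB13, SERPINB4 and SERPINB3, its measured neighbours in order, were each highest in untreated Colo357, as SERPINB5 was, at 32.9, 34.2 and 409.9. After antibody they were at 29.4, 22.4 and 67.5 in Colo357, and in HT29 cells none of the 3 exceeded 25.3. SERPINB13 and SERPINB4 lay below the signal filter in every comparison. The share of all genes highest in untreated Colo357 was not computed, so nothing is read from this shared array. SERPINB7, farther along, was highest in the 1-vector clone, at 41.8, and did not exceed 9.2 elsewhere. SERPINB10 was highest in antibody-treated Colo357, at 20.8. SERPINB8, at the end of the run, was at 186.2 in clone G and at 177.7 and 101.4 in antibody-treated and untreated Colo357.

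TFPI was at 146.5, 377.0 and 158.8 in clones G, E and 1-vector, against 1942.4 in the GFP clone and 370.8 in untreated HT29, so that the GFP clone held the highest value of the HT29 arrays. LCN2, an acute phase gene of epithelial cells, was at 1516.3 and 1326.1 in clones G and E, against 4441.4 in the 1-vector clone, 4213.7 in the GFP clone and 1189.4 in untreated HT29.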
